A study of Drosophila mojavensis with 172 samples.

Results

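Drosophila mojavensis is a fly of the Sonoran Desert whose larvae feed in rotting columnar cacti, chiefly agria in Baja California and organ pipe on the Sonoran mainland. Transcript levels were compared here between early pupae from these 2 cactus diets. The comparison takes the 14 early pupal (EP) arrays among the 172 arrays of a life-cycle series, chosen by the stage in their titles. All were whole wild-type animals, from Las Bocas in Sonora or Punta Prieta in Baja California, that had grown as larvae on laboratory medium made from 1 of the 2 cacti. Las Bocas had 4 arrays on agria and 3 on organ pipe, and Punta Prieta had 3 on agria and 4 on organ pipe, so each diet had 7 arrays. The labels give neither the sex of the pupae, nor the number pooled for an array, nor their age within the early pupal stage, and they do not say that replicates came from separate cultures. P-values therefore measure the spread between these arrays, which may be technical. Each array gave 1 log2 signal for each of 14528 transcripts, named below by the IDs of the data because no table used here pairs them with genes (0 IDs matched). No function is therefore given for a transcript, and no sequence is shown.

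A pupa does not feed, so its diet is that of the larva it came from. Pupariation follows a pulse of the steroid hormone ecdysone. Larval tissues such as the salivary glands and gut are then broken down while the imaginal discs and other precursor cells build the adult body. A pupal transcriptome therefore changes quickly with time after pupariation, and in whole animals a smaller tissue and less RNA per cell cannot be told apart.

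The stage label was checked against the means of all stages, with the array's own group left out. Of the 14 arrays, 13 correlated best with the early pupal mean (r between 0.935 and 0.976). The exception was replicate 1 of Las Bocas on organ pipe, which had r = 0.902 with early pupae and r = 0.920 with first-instar larvae. It stands apart from its own group as well, with a mean r of 0.875 to the other Las Bocas organ pipe arrays. The median signal of an array ranged from 11.18 to 11.29, and its SD over transcripts from 1.37 to 1.51. Among arrays of other stages that enter the comparisons, 3 of the 4 late pupal arrays of Punta Prieta on agria stood apart. They lay at 0.687, 0.420 and 0.234 on the developmental axis described below, where the highest early pupal array was at 0.626. Their stage labels were kept, and whether the labels are right was not tested. These 3 arrays are part of the late pupal mean used for that axis and for the transcript lists. Results without them are given for the position difference, the list medians and the Punta Prieta late pupal comparison. Late pupal stage means, counts of highest stage, counts of called list members and correlations with the late pupal difference include them. Population took 6.96% of the variance among the 14 arrays, diet a further 15.7% and the interaction 7.64%, while 69.7% lay within groups. Each term has 1 degree of freedom, against 10 within groups, and takes some share even without an effect. These shares were not tested.

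Replicates on organ pipe were more dispersed than replicates on agria. Pairs of arrays within a group correlated between 0.927 and 0.976 for Las Bocas on agria and between 0.960 and 0.970 for Punta Prieta on agria. On organ pipe the same range was 0.824 to 0.935 in Las Bocas and 0.847 to 0.956 in Punta Prieta. The median transcript had an SD of 0.235 on agria and 0.337 on organ pipe in Las Bocas, and of 0.207 and 0.357 in Punta Prieta. The SD was higher on organ pipe in both populations for 7797 of 14528 transcripts (53.7%) and lower in both for 1292 (8.89%). This difference in dispersion was not tested.

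With the spread taken from the 14 early pupal arrays, no transcript passed the test for diet over both populations. limma called 0 of 14528 (0%) at an adjusted p under 0.05, the lowest adjusted p being 0.231, while 2094 (14.4%) had an unadjusted p under 0.05, 991 higher (6.82%) and 1103 lower (7.59%) on organ pipe. The median standard error of the blocked difference was 0.177 on the log2 scale. When the spread was taken from the whole life cycle, that is from all 172 arrays with 118 residual degrees of freedom, 273 transcripts passed (1.88%), 73 higher (0.502%) and 200 lower (1.38%) on organ pipe. The transcripts so called varied more among early pupae than that spread allows for. Their median within-group SD was 0.615 in early pupae against 0.430 over all stages for the 73, and 0.580 against 0.410 for the 200. The early pupal SD was the larger in 67 of the 73 (91.8%) and in 191 of the 200 (95.5%), against 44.0% of all transcripts. With the spread of all 25 pupal arrays 0 passed and 699 had an unadjusted p under 0.05. The 273 are described below as the transcripts called with the whole-series spread, a call that the early pupal arrays alone did not give and that understates the early pupal spread of most of them.

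The transcripts with the lowest p-values over both populations were FBtr0174036 and FBtr0164103 among those higher on organ pipe, and FBtr0175557 and FBtr0162431 among those lower. FBtr0174036 had signals of 11.68, 11.93, 11.75 and 12.19 in the Las Bocas agria arrays and 13.07, 12.89 and 12.66 in those on organ pipe. In Punta Prieta it had 11.16, 11.95 and 11.92 on agria and 12.80, 12.11, 12.37 and 12.92 on organ pipe. The diets do not overlap in either population. The blocked difference was 0.93 (SE 0.17, limma adjusted p = 0.237, or 0.000255 with the whole-series spread). Its mean over stages was 12.76 ± 0.36 (SD, n = 15) in third-instar larvae and 12.81 ± 0.56 (n = 11) in late pupae, both above all 7 agria arrays of early pupae.

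FBtr0164103 is a transcript of late pupae and young females, with 10.63 ± 0.32 in third-instar larvae, 14.96 ± 0.35 in late pupae and 15.11 ± 0.20 (n = 18) in newly eclosed females. In early pupae it had 10.22, 11.18, 12.15 and 10.72 on agria and 11.87, 12.70 and 13.69 on organ pipe in Las Bocas. The Punta Prieta signals were 10.72, 10.70 and 10.50 on agria and 11.82, 11.95, 12.83 and 13.47 on organ pipe. Here 1 Las Bocas agria array (replicate 3) lies above the lowest organ pipe array, and the Punta Prieta groups do not overlap. The blocked difference was 1.78 (SE 0.34, limma adjusted p = 0.237, or 1.83e-06 with the whole-series spread).

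FBtr0175557, a transcript of both pupal stages, had the lowest p of all. Its mean was 10.02 ± 0.14 in third-instar larvae, 13.07 ± 1.23 (n = 14) in early pupae and 13.60 ± 1.33 in late pupae. The Las Bocas signals were 13.92, 14.30, 14.32 and 13.60 on agria and 9.95, 11.54 and 12.16 on organ pipe. The Punta Prieta signals were 14.38, 13.41 and 13.52 on agria and 12.49, 12.72, 13.10 and 13.61 on organ pipe. The Las Bocas diets are well apart, and in Punta Prieta the highest organ pipe array overlaps agria. The blocked difference was -1.80 (SE 0.30, limma adjusted p = 0.231), and it passed without replicate 1 of Las Bocas on organ pipe (-1.49, adjusted p = 0.0332) and without replicate 3 of that group (-2.04, adjusted p = 0.0211). These were the only 2 of the 14 omissions of 1 array in which it passed, and elsewhere the limma adjusted p reached 0.592. FBtr0162431 differed by -0.87 (SE 0.15, limma adjusted p = 0.231). Its agria arrays lay between 12.39 and 13.05 and its organ pipe arrays between 11.30 and 12.24, with no overlap.

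**Figure D1:**
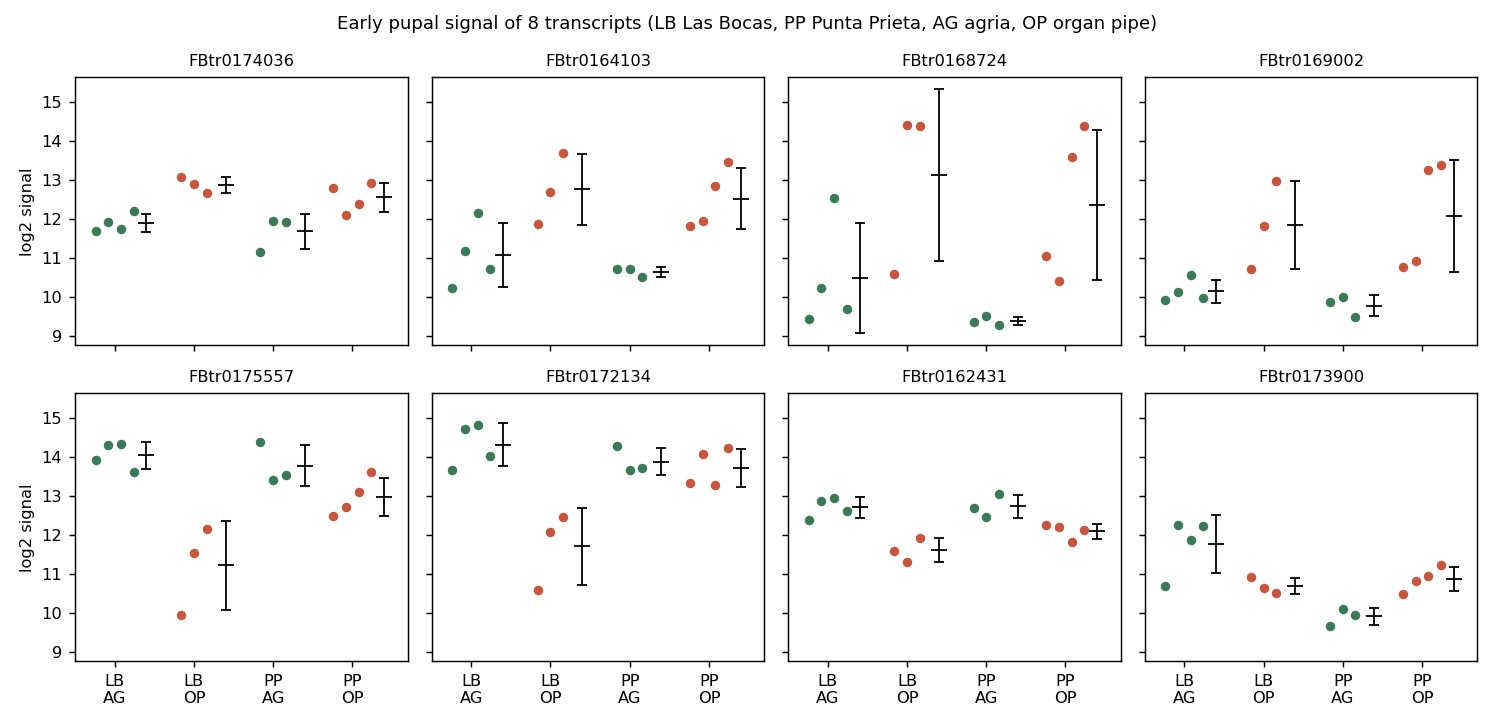
Log2 signal (y axis) of 8 transcripts in each early pupal array, by population (LB Las Bocas, PP Punta Prieta) and diet (AG agria, green; OP organ pipe, red). Points are arrays and bars are the mean and SD of a group. In the upper row the organ pipe arrays reach higher than the agria arrays and spread widely for FBtr0168724 and FBtr0169002, whereas FBtr0173900 runs in opposite directions in the 2 populations.

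Among the transcripts called with the whole-series spread, the differences of largest size were chosen after their values were seen. FBtr0168724 had 9.44, 10.24, 12.54 and 9.70 on agria and 10.59, 14.41 and 14.37 on organ pipe in Las Bocas. In Punta Prieta it had 9.36, 9.50 and 9.29 on agria and 11.03, 10.40, 13.59 and 14.39 on organ pipe. The signal was very uneven within groups: 4 of the 7 organ pipe arrays lay between 13.59 and 14.41, and the highest agria array was at 12.54. The blocked difference was 2.81 (SE 0.73, limma adjusted p = 0.271, or 5.06e-08 with the whole-series spread). FBtr0169002 had a difference of 2.00 (SE 0.43, limma adjusted p = 0.237), with agria arrays from 9.48 to 10.57 and organ pipe arrays from 10.72 to 13.39. Both had means near 14 to 15 in late pupae (14.89 ± 0.35 and 14.48 ± 0.24) and in newly eclosed females (14.77 ± 0.24 and 14.49 ± 0.37). For FBtr0168724 the within-group SD was 1.64 in early pupae and 0.708 over all stages. In the other direction, FBtr0169692 differed by -1.65 (SE 0.41, limma adjusted p = 0.268). It had 11.43, 14.01, 13.62 and 12.85 on agria and 9.58, 10.67 and 11.68 on organ pipe in Las Bocas, which overlap by 1 array. The Punta Prieta signals were 13.27, 12.12 and 12.38 on agria and 11.20, 12.48, 10.99 and 11.79 on organ pipe, and overlap as well. The difference was -2.33 in Las Bocas and -0.97 in Punta Prieta (95% interval -2.21 to 0.26). Its stage mean was 9.50 ± 0.18 in third-instar larvae and 11.93 ± 1.40 in late pupae.

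Large differences in the same direction in both populations were few. Over both populations 40 transcripts were higher on organ pipe by at least 1 log2 unit (0.275%) and 83 lower (0.571%). In Las Bocas alone the counts were 53 (0.365%) and 254 (1.75%), and in Punta Prieta 75 (0.516%) and 258 (1.78%). The difference was at least 1 upward in each population for 26 transcripts and at least 1 downward in each for 7, and none was past 1 in opposite directions (0 of 14528). Of the 26, 22 belong to the transcripts higher in late pupae than in third-instar larvae, 16 were higher there by at least 2 log2 units, and 17 had their highest stage mean in late pupae. Of all transcripts, 12.2% belong to that list, 287 of 14528 were higher by at least 2, and 14.2% had their highest mean in late pupae. The other 9 of the 26 had it in newly eclosed females (4), early pupae (3), second-instar larvae (1) or 18-day females (1). Their mean signal over all diets was 11.04 in third-instar larvae, 11.57 in early pupae, 13.54 in late pupae, 12.30 in newly eclosed females and 10.39 at 10 days. These members were chosen by the contrast itself, so their values are a description and no test applies.

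The mean of the 26 transcripts differed widely between replicates on organ pipe. It was 10.62, 10.83, 11.64 and 10.90 in the Las Bocas agria arrays and 11.27, 13.41 and 13.51 on organ pipe. In Punta Prieta it was 10.28, 10.65 and 10.53 on agria and 11.43, 11.21, 12.51 and 13.15 on organ pipe. Replicates 2 and 3 of Las Bocas and replicates 3 and 4 of Punta Prieta on organ pipe stand above all other arrays. In the remaining 3 organ pipe arrays the mean lay between 11.21 and 11.43, below replicate 3 of Las Bocas on agria. All 26 were called with the whole-series spread (0.502% of all transcripts were called higher), and 2 had no overlap of the diets in either population (0.172% of all), as counts that the choice of members favours.

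**Figure D2:**
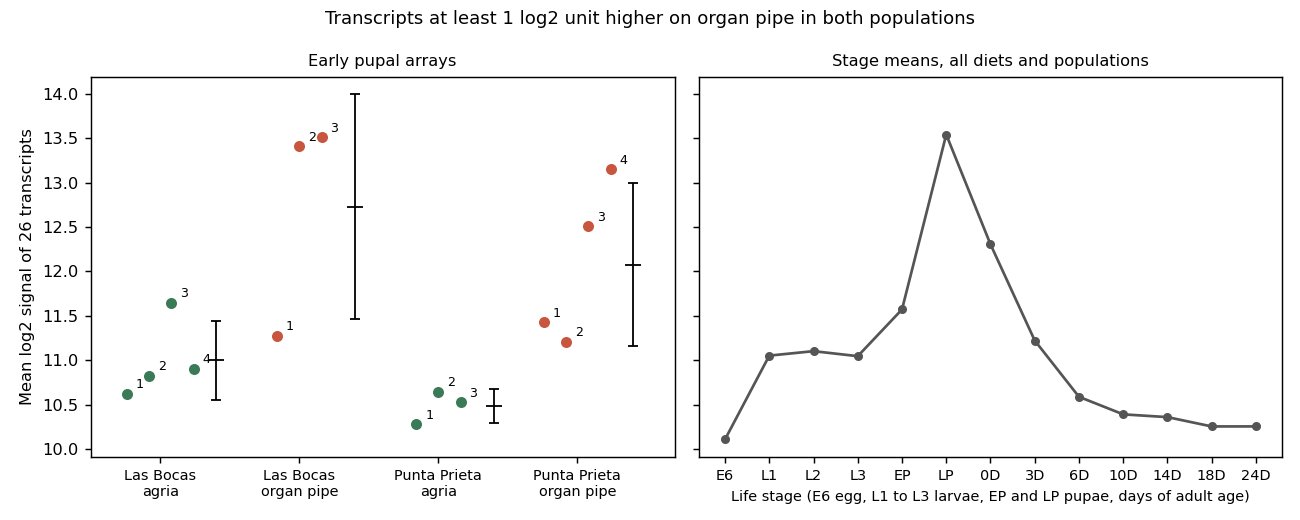
Left, mean log2 signal (y axis) of the 26 transcripts that were at least 1 log2 unit higher on organ pipe in both populations, by array (numbers are replicates, bars the mean and SD of a group). Right, the mean of the same transcripts in each life stage. The 4 highest arrays are all on organ pipe, and the stage mean has its peak of 13.54 in late pupae (LP).

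Of the 7 transcripts lower by at least 1 in both populations, 4 belong to the late pupal list and 4 had their highest stage mean in late pupae. With the whole-series spread 4 were called (1.38% of all transcripts were called lower), and 1 had no overlap of the diets in either population (0.11% of all). Their mean signal was 12.37, 12.82, 13.02 and 12.02 on agria and 10.30, 11.05 and 11.91 on organ pipe in Las Bocas. In Punta Prieta it was 12.92, 12.39 and 12.79 on agria and 11.12, 12.30, 11.56 and 11.22 on organ pipe. The lowest agria array lay above the highest organ pipe array within each population. These members were also chosen by the contrast, which fixes that direction.

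Arrays were then placed on a developmental axis that uses no early pupal array. Its ends are the mean of third-instar larvae (0) and that of late pupae (1), over 3919 transcripts whose means differ by at least 1 log2 unit. First-instar larvae are not on this axis. Yet theirs was the best-correlated mean apart from that of early pupae in every array but replicate 3 of Las Bocas on agria. Replicate 1 of Las Bocas on organ pipe, for example, had r = 0.920 with first-instar and 0.874 with third-instar larvae. A position does not measure likeness to first-instar larvae. Las Bocas arrays lay at 0.435, 0.550, 0.626 and 0.387 on agria and at 0.150, 0.297 and 0.542 on organ pipe. Punta Prieta arrays lay at 0.521, 0.374 and 0.487 on agria and at 0.243, 0.504, 0.362 and 0.350 on organ pipe. The position was under the mean of the agria arrays from the same population in 5 of the 7 organ pipe arrays, and the groups overlap in both populations. The group means were 0.499 ± 0.11 (SD, n = 4) on agria and 0.329 ± 0.20 (n = 3) on organ pipe in Las Bocas, and 0.461 ± 0.077 (n = 3) and 0.365 ± 0.11 (n = 4) in Punta Prieta.

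The mean difference in position was -0.133, which did not pass an exact two-sided permutation test of the diet labels within population (p = 0.0645, adjusted p = 0.193 over 3 comparisons, smallest possible p = 0.000816). Within Las Bocas it was -0.170 (exact permutation p = 0.2) and within Punta Prieta -0.0959 (exact permutation p = 0.2), where the smallest possible p is 0.0286. Unadjusted, the blocked comparison passed without replicate 3 of Las Bocas on organ pipe (-0.186, exact permutation p = 0.0152), without replicate 2 of Punta Prieta on organ pipe (-0.156, p = 0.0300) and without replicate 2 of Punta Prieta on agria (-0.155, p = 0.0476). It passed in only these 3 of the 14 omissions of 1 array. The difference was smallest, at -0.0880 (-0.0801 within Las Bocas), without replicate 1 of Las Bocas on organ pipe, which correlated best with first-instar larvae. The late pupal arrays that set the far end ranged from 0.234 to 1.35 themselves, against -0.103 to 0.112 in third-instar larvae, so the late end is the less even one. Axes built from the Las Bocas arrays alone or from the organ pipe arrays alone, chosen after seeing the data, gave -0.126 (exact permutation p = 0.0833) and -0.127 (p = 0.0727).

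**Figure D3:**
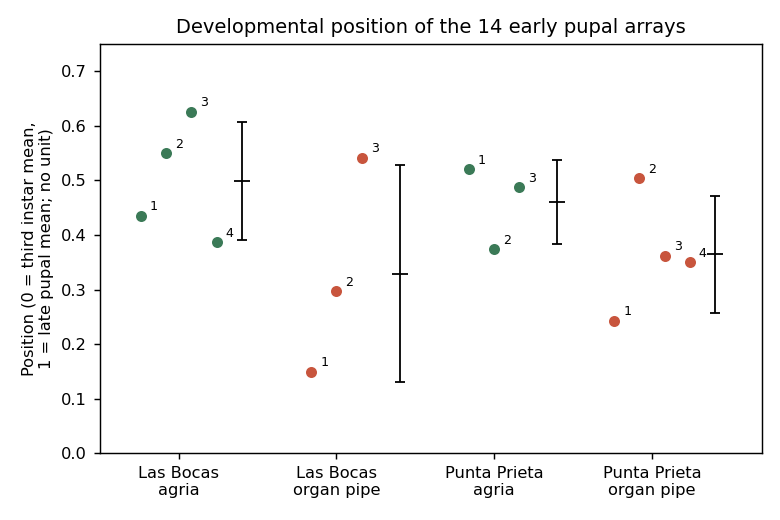
Developmental position (y axis, no unit) of each early pupal array between the third-instar mean at 0 and the late pupal mean at 1, by population and diet. Points are arrays with their replicate number and bars are the group mean and SD. The lowest array, at 0.150, is replicate 1 of Las Bocas on organ pipe, and the highest, at 0.626, is replicate 3 of Las Bocas on agria.

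The transcripts that make up this axis form 2 large lists. Of 2142 transcripts higher in third-instar larvae than in late pupae, 1884 were higher on organ pipe in early pupae, with a median difference of 0.25, and 1541 were higher in both populations. Of 1777 transcripts higher in late pupae than in third-instar larvae, 1329 were lower on organ pipe, with a median of -0.25, and 936 were lower in both. Over all 14528 transcripts 8038 were higher, the median was 0.04, 5490 were higher in both populations and 3896 lower in both. No member of either list passed the early pupal test (0 and 0), and with the whole-series spread 3 of the larval list passed upward and 3 downward. In the late pupal list 31 passed upward and 106 downward. Of all transcripts, 0.502% passed upward and 1.38% downward with that spread. Lists formed from the Las Bocas stage means alone, which leave out the Punta Prieta late pupae, had medians of 0.23 over 3083 transcripts and -0.21 over 2347. The late pupal list held 31 of the 73 transcripts called higher (42.5%) and 106 of the 200 called lower (53.0%), and 12.2% of all transcripts. The larval list held 3 of the 73 (4.11%) and 3 of the 200 (1.5%), and 14.7% of all transcripts.

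In arrays, the mean signal of the larval list ran from 11.33 to 11.71 on agria and from 11.43 to 12.06 on organ pipe in Las Bocas, and from 11.49 to 11.74 and from 11.44 to 11.95 in Punta Prieta. The late pupal list ran from 11.13 to 11.58 and from 10.68 to 11.38 in Las Bocas, and from 11.13 to 11.41 and from 10.86 to 11.27 in Punta Prieta. All these ranges overlap between diets. Across all transcripts the diet difference correlated with the late pupal minus third-instar difference at r = -0.447 over both populations, -0.480 in Las Bocas and -0.261 in Punta Prieta. With the late pupal minus first-instar difference the same values were -0.471, -0.478 and -0.302. Transcripts share their arrays and are not independent points.

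Early pupal peak transcripts, those whose early pupal mean exceeded both the third-instar and the late pupal mean by at least 1 log2 unit, were mostly lower on organ pipe. Of 209, 180 were lower (86.1%, against 44.7% of all transcripts), 137 of them in both populations, and the median difference was -0.35. None passed the early pupal test, while 18 passed downward and 0 upward with the whole-series spread, with which 1.38% of all transcripts were called lower and 0.502% higher. The list uses the mean of the early pupal arrays, though not their diets. Its mean signal was 13.48, 13.22, 13.15 and 13.08 on agria and 12.46, 13.01 and 13.50 on organ pipe in Las Bocas. In Punta Prieta it was 13.52, 13.47 and 13.44 on agria and 12.94, 13.40, 13.21 and 12.55 on organ pipe. The Las Bocas diets overlap, since the highest organ pipe array exceeded every agria array, and the 4 Punta Prieta organ pipe arrays all lay below the agria arrays.

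A further pair of lists came from feeding and reproductive stages. Feeding-stage transcripts numbered 292. Their means in second- and third-instar larvae and in 3-, 6- and 10-day females were at least 1 log2 unit above eggs and late pupae. Of the 292, 244 were higher on organ pipe, 196 of them in both populations, with a median of 0.24. None passed the early pupal test, and with the whole-series spread 0 passed upward and 1 downward, against 0.502% and 1.38% of all transcripts. Egg and mature-female transcripts numbered 1271, and their median was 0.04 in Las Bocas and -0.19 in Punta Prieta, with 1 passing upward and 19 downward over both populations with the whole-series spread. That downward share is near the 1.38% of all transcripts. Their mean signal in Punta Prieta was 10.91 ± 0.099 (n = 3) on agria and 10.68 ± 0.14 (n = 4) on organ pipe, and in Las Bocas 10.75 ± 0.11 and 10.77 ± 0.22.

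**Figure D4:**
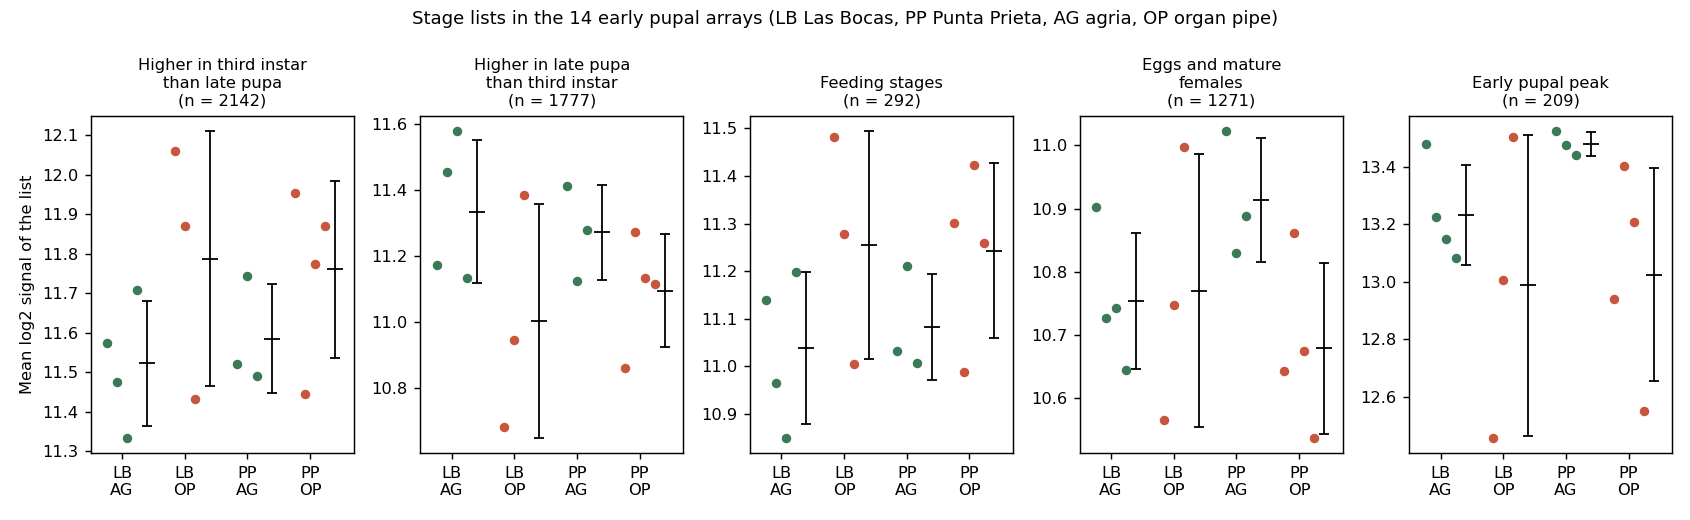
Mean log2 signal (y axis, a separate scale in each panel) of 5 lists of transcripts in the 14 early pupal arrays, by population (LB, PP) and diet (AG, OP). Points are arrays in replicate order and bars are the mean and SD of a group. The diets overlap in every list and population except the early pupal peak transcripts in Punta Prieta.

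In Las Bocas alone, early pupae on the 2 diets differed in no transcript at the adjusted threshold (0 of 14528, 0%), with 1096 at an unadjusted p under 0.05 (7.54%; 472 higher, 3.25%, and 624 lower, 4.3%). With the whole-series spread 180 were called (1.24%), 51 higher (0.351%) and 129 lower (0.888%). FBtr0175557 came nearest, with a difference of -2.82 (SE 0.43, limma adjusted p = 0.0925), next to FBtr0172134 at -2.59 (SE 0.41, limma adjusted p = 0.0925). FBtr0172134 had 13.67, 14.72, 14.81 and 14.02 on agria and 10.59, 12.08 and 12.46 on organ pipe, without overlap. It is another pupal transcript, at 10.33 ± 0.62 in third-instar larvae and 13.96 ± 0.72 in late pupae. Both passed in Las Bocas without replicate 3 on organ pipe (-3.29 and -2.97, limma adjusted p = 0.0248 and 0.0364). Neither passed in any other of the 14 omissions of 1 array, where the limma adjusted p reached 0.484 for each. In Punta Prieta FBtr0172134 differed by -0.16 (95% interval -1.03 to 0.71).

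Upward in Las Bocas, the lowest p-values belonged to FBtr0163092 and FBtr0167224. FBtr0163092 had 11.71, 11.65, 11.71 and 11.60 on agria and 12.19, 12.62 and 12.65 on organ pipe, a difference of 0.82 (SE 0.17, limma adjusted p = 0.213). FBtr0167224 had 11.56, 10.76, 11.09 and 11.21 on agria and 12.01, 12.24 and 12.35 on organ pipe, a difference of 1.05 (SE 0.22, limma adjusted p = 0.213). Neither had overlapping diets in Las Bocas. In Punta Prieta their differences were 0.13 (95% interval -0.23 to 0.49) and 0.02 (-0.45 to 0.48).

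In Punta Prieta alone, 0 of 14528 transcripts passed (0%), 1661 had an unadjusted p under 0.05 (11.4%; 669 higher, 4.6%, and 992 lower, 6.83%). With the whole-series spread 292 were called (2.01%), 53 higher (0.365%) and 239 lower (1.65%). FBtr0165067 had 12.02, 12.19 and 12.90 on agria and 13.62, 13.26, 13.98 and 13.85 on organ pipe, a difference of 1.31 (SE 0.25, limma adjusted p = 0.265). The Las Bocas arrays on either diet, from 13.09 to 13.69, lay near the Punta Prieta organ pipe level, so agria in Punta Prieta is the group that stands low. FBtr0165644 differed by 1.26 (SE 0.24, limma adjusted p = 0.265), from 10.78 ± 0.20 (n = 3) on agria to 12.04 ± 0.25 (n = 4) on organ pipe. Its mean over stages was 13.48 ± 0.91 in third-instar larvae, 10.93 ± 0.68 in late pupae and 14.27 ± 0.38 (n = 12) in 10-day females.

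Downward in Punta Prieta, FBtr0174247 had 13.90, 14.01 and 14.07 on agria and 12.56, 12.74, 12.82 and 11.92 on organ pipe, a difference of -1.48 (SE 0.25, limma adjusted p = 0.265). FBtr0174908 had 13.11, 13.45 and 12.90 on agria and 12.03, 12.45, 12.13 and 11.90 on organ pipe, a difference of -1.02 (SE 0.19, limma adjusted p = 0.265). In both, all organ pipe arrays lay below all agria arrays. In Las Bocas the differences were -0.54 (SE 0.25) and -0.08 (SE 0.19).

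Diet groups without overlap were counted in each population. In Las Bocas 567 transcripts (3.9%) had every organ pipe array above every agria array and 463 (3.19%) the reverse. In Punta Prieta the counts were 613 (4.22%) and 1087 (7.48%). Separation in both populations was seen upward for 25 transcripts (0.172%), downward for 16 (0.11%), and in opposite directions for 16 (0.11%).

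The 2 populations, which share no array, had diet differences that correlated at r = 0.347 over 14528 transcripts, and 9386 transcripts (64.6%) had the same sign. The SD of the differences over transcripts was 0.372 in Las Bocas and 0.401 in Punta Prieta, and the median standard error was 0.250 in each. A difference between the populations in the diet effect passed for 0 of 14528 transcripts (0%; limma, 747 at an unadjusted p under 0.05, 5.14%). Of those 747, 312 were higher in Punta Prieta (2.15%) and 435 lower (2.99%). With the whole-series spread 35 passed (0.241%), 13 higher (0.0895%) and 22 lower (0.151%) in Punta Prieta.

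The lowest p in this interaction belonged to FBtr0162715 and FBtr0164338 downward and to FBtr0173900 and FBtr0172134 upward. FBtr0173900 had 10.68, 12.26, 11.87 and 12.22 on agria and 10.91, 10.62 and 10.50 on organ pipe in Las Bocas. Its Punta Prieta signals were 9.66, 10.11 and 9.95 on agria and 10.48, 10.83, 10.94 and 11.22 on organ pipe. The difference between populations was 2.04 (SE 0.45, limma adjusted p = 0.919, or 0.0185 with the whole-series spread), and it passed without replicate 1 of Las Bocas on agria (2.40, adjusted p = 0.0256). It passed in no other of the 14 omissions of 1 array, where the limma adjusted p reached 0.9998. FBtr0162715 had diet differences of 0.42 (SE 0.25) in Las Bocas and -1.25 (SE 0.25) in Punta Prieta, and FBtr0164338 had 0.30 (SE 0.24) and -1.18 (SE 0.24). For each of these 2, the Punta Prieta agria arrays are the highest group, at 13.11 ± 0.31 and 14.23 ± 0.11 (n = 3), against 11.85 ± 0.27 and 13.05 ± 0.27 (n = 4) on organ pipe, which is near the Las Bocas agria level (11.85 ± 0.26 and 13.17 ± 0.40, n = 4).

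**Figure D5:**
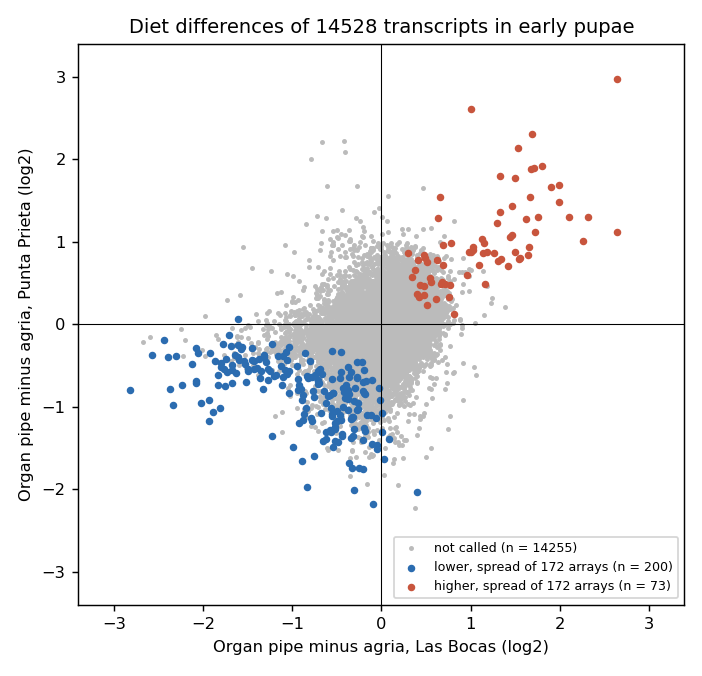
Organ pipe minus agria difference (log2) of each transcript in early pupae of Las Bocas (x axis) and Punta Prieta (y axis). Grey points are not called, red and blue points were called higher (n = 73) or lower (n = 200) over both populations with the spread of all 172 arrays. The red points extend into the upper right and the blue points form one arm along each negative axis.

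Arrays of other stages were also compared between diets for the same transcripts. Their spread entered the whole-series call that chose these transcripts, so they are not fully independent of that choice. In third-instar larvae (5 arrays on organ pipe, 10 on agria) 53 of the 73 transcripts called higher in early pupae were higher on organ pipe as well (72.6%, against 57.4% of all transcripts), with a median of 0.27. In first-instar larvae 58 of the 73 were higher (79.5%, against 57.2% of all), but in second-instar larvae 21 were (28.8%, against 49.5% of all). Over both populations, r with the early pupal difference over all transcripts was 0.349, -0.163 and 0.333 in first-, second- and third-instar larvae. In the same order r was 0.136, -0.0711 and 0.170 within Las Bocas, and 0.297, 0.244 and 0.375 within Punta Prieta. Among adults the share of the 73 that were higher was lowest in 14-day females, at 18 (24.7%, against 54.7% of all). It was highest in 10-day females, at 51 of 73 (69.9%, against 46.1% of all). Of the 200 called lower, 92 were lower in third-instar larvae (46.0%, against 42.6% of all). The third-instar value in Punta Prieta rests on 1 organ pipe array. None of the shares of these called transcripts in other stages was tested.

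Late pupae gave a direction that depends on 3 arrays. On the developmental axis the 4 agria late pupal arrays of Punta Prieta lay at 0.687, 0.420, 0.234 and 1.09, and the 4 organ pipe arrays at 1.26, 1.02, 1.35 and 1.29. The first 3 agria arrays thus lay at or near the positions of early pupae, whose highest array was at 0.626. With all 8 arrays, 19 of the 200 transcripts called lower in early pupae were lower on organ pipe in Punta Prieta late pupae (9.5%, against 48.7% of all transcripts), their median difference was 0.96, and r with the Punta Prieta early pupal difference over all transcripts was -0.465. Against agria replicate 4 alone, a choice made after the positions were seen, 134 of the 200 were lower (67.0%, against 59.3% of all), the median was -0.26 and r was 0.0268. Leaving out any 1 of the 8 arrays kept the count between 18 and 24. The part of position in this comparison was not tested further.

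The late pupae of Las Bocas, with 1 organ pipe array at 1.09 and 2 agria arrays at 1.05 and 1.09, had r = -0.0227 with early pupae of that population. There 140 of the 200 were lower on organ pipe (70.0%, against 55.6% of all). Of the 73 called higher, 42 were higher in Las Bocas late pupae (57.5%, against 44.4% of all) and 37 in those of Punta Prieta (50.7%, against 51.3% of all).

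The 7 transcripts named over both populations can be followed into these late pupae, where the Punta Prieta values rest on the same uneven arrays. FBtr0174036 had a diet difference of -0.87 in Las Bocas and 0.44 in Punta Prieta. FBtr0164103 had 0.03 and 0.37, FBtr0168724 had -0.20 and 0.39, and FBtr0169002 had 0.07 and -0.06. Of those lower in early pupae, FBtr0175557 had 0.50 and 1.37, FBtr0162431 had 0.34 and 0.54, and FBtr0169692 had -0.92 and 1.87. These late pupal differences were not tested.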

How the data were processed

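Total RNA of whole animals was copied into double-stranded cDNA, labelled with Cy3 and hybridised to single-colour NimbleGen arrays, per the labels' protocols. The values that the authors deposited are on a log2 scale; the submitters' processing notes name RMA, whose version and scope the sources used here do not give. RMA summarises probes to 1 value a transcript and evens out distributions, which can shrink differences. No scanner files, slides or background measurements were used here, so no slide block or background correction was tried, and the number of arrays limits precision. No 2 early pupal arrays held identical values.

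Groups came from the titles. limma 3.58.1 in R 4.3.3 (lmFit, eBayes) was fitted to the 14 early pupal arrays with 1 mean for each group (10 residual degrees of freedom). Contrasts were organ pipe minus agria over both populations with equal weight, in each population, and the difference between populations. P-values were adjusted by Benjamini-Hochberg over 14528 transcripts and called under 0.05. For each contrast the text names the 2 transcripts of lowest p in each direction, since none was called. Transcript lists used means of stages with groups weighing equally. Array positions are least-squares projections, tested by exact permutation within population. The limma fit was tested on simulated data. Members, lists and alternatives were chosen with earlier results of these data known; the position covariate, the Las Bocas and organ pipe axes, the Las Bocas lists, the late pupal subset and the sets at 1 log2 unit in both populations were added after seeing the values.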

Additional observations from a re-analysis of the deposited data

Results flagged for a closer look

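Among 52 checks in groups of 4 arrays, 2 values lay apart from their group by Dixon's criterion, where chance gives about 1 in 20. The SD of the values on replicate 4 of Las Bocas on agria was 1.42, with the other arrays of its group between 1.45 and 1.46. The median of replicate 2 of Punta Prieta on organ pipe was 11.18, with the others between 11.27 and 11.27. FBtr0173900 ran in opposite directions in the populations, with every Las Bocas organ pipe array below its agria mean and every Punta Prieta organ pipe array above it. Its diet difference was -1.08 in Las Bocas and 0.96 in Punta Prieta, 2.04 apart, and the test of that difference did not pass (limma adjusted p = 0.919).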

How the results depend on the processing

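The count of called transcripts over both populations stayed at 0 with the spread of 25 pupal arrays, a replicate block, repeated quantile normalization, median centring, array spread or position as a covariate, an additive model, without the dimmest 25%, and with trend and robust. It was 273 with the spread of all 172 arrays. With array weights it was 6312, with 6806 in Las Bocas, 2406 in Punta Prieta and 2053 for the interaction; 1 array (Las Bocas on organ pipe, replicate 2) took a weight of 69.3 while the others had 0.214 to 1.86, and limma stopped before the weights converged, so these counts are not a usable estimate. With the whole-series spread the other counts were 180, 292 and 35. Array spread as a covariate gave 4 in Las Bocas and 4 for the interaction, and 2 were called in Las Bocas both without the dimmest 25% and with trend and robust. Leaving out 1 array gave 0 to 8 over both populations (8 without replicate 1 of Las Bocas on organ pipe, 3 without replicate 3), 0 to 3 in Las Bocas, 0 to 0 in Punta Prieta and 0 to 2 for the interaction (2 without replicate 1 of Las Bocas on agria).

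The position difference stayed between -0.186 and -0.0880 without single arrays (exact permutation p from 0.0152 to 0.185), and between -0.139 and -0.0886 on other axes and scalings. List medians kept their sign without any single array: 0.17 to 0.36 for the larval list, -0.36 to -0.18 for the late pupal, 0.16 to 0.32 for feeding stages, -0.12 to -0.04 for eggs and mature females, -0.48 to -0.19 for early pupae and 0.03 to 0.06 over all transcripts. Lists formed from Las Bocas arrays alone had medians of 0.25 for feeding stages, -0.08 for eggs and mature females and -0.33 for early pupae. With lists formed at 2 log2 units the egg and mature-female median was 0.02 instead of -0.07, the only list median to change sign in the settings run.

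At an unadjusted p under 0.05 the blocked count was 672 with position as a covariate, chosen after seeing the data, and 645 with array spread, against 2094. It ran from 1181 (without replicate 1 of Las Bocas on organ pipe) to 4171 (without replicate 3), with 1388 without replicate 2 of that group, 1194 without replicate 1 of Punta Prieta on agria and 3628 without replicate 2 of Punta Prieta on organ pipe. Without single arrays the unadjusted count ran from 566 to 2769 in Las Bocas (without replicate 2 on agria, without replicate 3 on organ pipe), from 772 to 3198 in Punta Prieta (without replicate 1 on agria, without replicate 2 on organ pipe) and from 450 to 1506 for the interaction (without Las Bocas replicate 2 on agria, without its replicate 1 on organ pipe). The titles share replicate numbers. Within a population, the deviations of same-numbered arrays of the 2 diets from their group means correlated at r from -0.432 to 0.305. Deviations within groups this small are tied to each other, so these values cannot decide whether the numbers pair the arrays. The replicate block left every adjusted count at 0, with 2024, 1292, 999 and 474 at an unadjusted p under 0.05 over both populations, in Las Bocas, in Punta Prieta and for the interaction.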
